A study of Homo sapiens with 2 samples.

Results

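AP-1 subunits, other immediate-early genes and the feedback inhibitors of the ERK kinase pathway were read out in the human gastric cancer cell line SNU216, an established line, with and without knockdown of the transcription factor TEAD4. The set holds every gene whose annotated symbol starts with DUSP, SPRY or SPRED and a digit, and 21 further named genes. Of these 21, 20 had an annotated probe, and EGR2 is not analysed here. That gave 52 genes of 20046 on the array, namely 25 DUSP, 4 SPRY and 3 SPRED genes beside the 20. Expression was measured on Illumina BeadChips with biotin-labelled cRNA. The control group is 1 array of a SNU216 line made with a non-silencing short hairpin RNA (shRNA), and the knockdown group is 1 array of a SNU216 line in which TEAD4 was knocked down. The labels do not give the number of hairpins, the time after delivery, or whether a line is 1 clone. There is no replicate in either group, so differences have no replicate check, no test was run, and precision is limited by the number of arrays.

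Growth factor receptors signal through RAS to the kinase ERK, and ERK switches on immediate-early genes within minutes, without new protein synthesis. FOS and JUN proteins pair to form AP-1, a DNA-binding factor that acts on genes of growth, migration and matrix breakdown in epithelial cells. ERK also induces its own brakes: dual-specificity phosphatases (DUSP) that remove its activating phosphates, and Sprouty (SPRY) and SPRED proteins that act upstream of it.

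Signals are given as normalized log2 values of a gene's brightest probe, and each difference is the knockdown minus the control, so a value above 0 means more signal in the knockdown. Detection required a detection p under 0.01. Of the 52 genes, 40 were detected, each of them on both arrays, and 12 on neither. Probes of the same gene gave the only measure of technical error, with a standard deviation of 0.31 per probe in the log2 difference over 2497 genes. It holds no difference between cultures.

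More of the set was higher in the knockdown than lower. The set was chosen with earlier results of these arrays known, so the shares below are not independent evidence of a direction. Of the 40 detected genes, 9 (22.5%) were at least 1.5-fold higher (a log2 difference of 0.58), against 7.24% of all 11720 detected genes. The 9 were SPRY4, FOS, FOSL1, IER3, DUSP6, DUSP10, JUNB, DUSP8 and ETV4. GADD45B alone was at least 1.5-fold lower (2.5%), against 9.20% of all detected genes. At 2-fold, 2 members were higher, SPRY4 and FOS (5%, against 1.81%), and 0 were lower (against 2.34%). The other 30 lay within 1.5-fold. The median difference of the 40 was 0.07, against -0.04 over all detected genes. Since all 40 were detected on both arrays, genes detected on both are a second background: 6.00% of those 10717 genes were at least 1.5-fold higher and 7.21% lower. Values from the authors' deposited normalized table put 6 of the 40 (15%) at least 1.5-fold higher, against 3.82% of all detected genes, and GADD45B again lower, against 4.52%. The 6 were SPRY4, FOS, FOSL1, IER3, DUSP6 and JUNB, and 0 of them reached 2-fold in the authors' deposited table, against 0.657%.

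**Figure D1:**
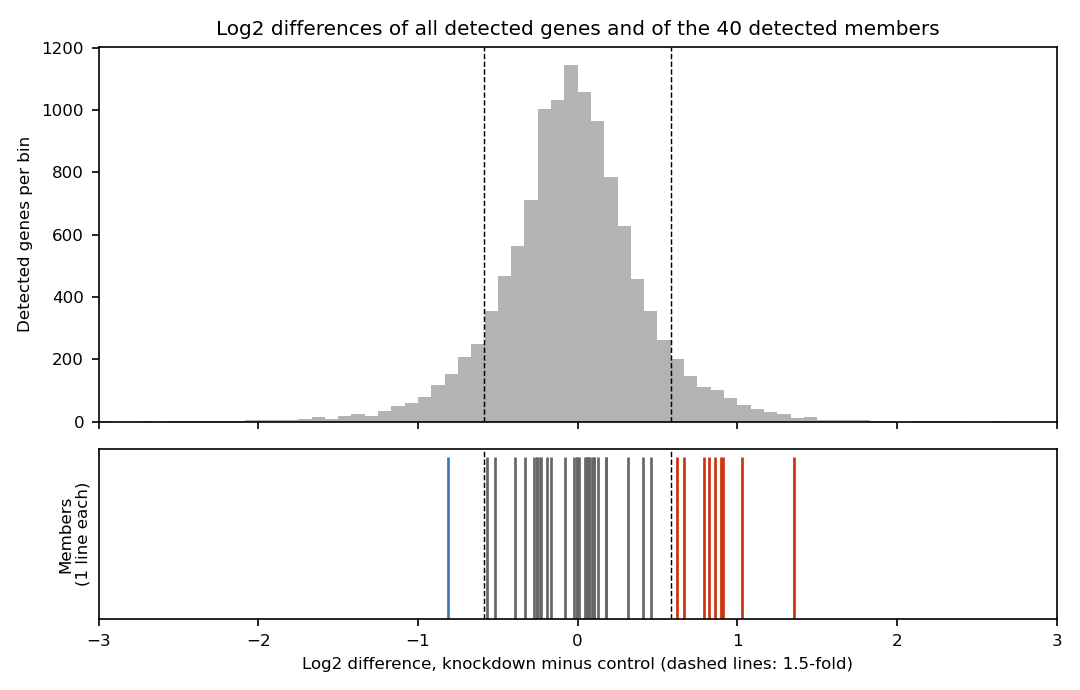
Upper panel, the number of detected genes (vertical axis) by log2 difference, knockdown minus control (horizontal axis), for 11720 genes; lower panel, 1 line for each of the 40 detected AP-1, immediate-early and ERK feedback genes. The 9 red lines are at or above 1.5-fold higher and the blue line is GADD45B, while the other 30 lie between the dashed 1.5-fold lines.

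The knockdown itself was visible on the arrays. The brightest TEAD4 probe had deposited signals of 1135 (control) and 167 (knockdown), 5.89-fold lower after normalization (-2.56). For that probe the authors' deposited table gave -2.22. Another TEAD4 probe was detected in the control alone, with deposited signals of 45.8 (control) and 5.84 (knockdown), and a further one on neither array (-0.04). Of the epithelial markers, 6 of 7 were detected, namely EPCAM (a surface adhesion molecule, -0.20), the keratins KRT8 (-0.14) and KRT19 (-0.04), the transcription factor ELF3 (-0.19), the tight junction gene CLDN4 (0.57) and the cadherin CDH1, which was past 1.5-fold (0.66). Their summed deposited signals were 94104 (control) and 88222 (knockdown). KRT18 was not detected. Leukocyte markers summed to 1050 and 1901, with PTPRC, CD3E and CD14 not detected. Most of both sums was the lysosomal gene CD68, with deposited signals of 888 (control) and 1791 (knockdown), higher in the knockdown (1.10). The other detected leukocyte markers, CD79A (-0.41) and LYZ (-0.15), were lower. Fibroblast markers summed to 285 and 134 with 4 of 6 detected, COL3A1 and PDGFRB not being detected, and endothelial markers to 240 and 116 with 1 of 5 detected, ESAM. Since SNU216 is an established line, the leukocyte, fibroblast and endothelial marker signals are not read as the presence of such cells. The part of these markers in the differences given here was not tested. In bulk RNA a change in a few cells and a change in all cells cannot be told apart.

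The sequence upstream of 4 genes past 1.5-fold is shown because each holds a match to a searched motif and each gene passed 1.5-fold in the authors' deposited table too. RefSeq (GRCh38.p14) promoter windows were matched for 40 of the 52 genes by Entrez identifier, and the 250 bases before the annotated start are given, 5′ to 3′ on the strand of the gene. Capitals mark a TATA box (TATAAA) in FOS, GADD45B and JUNB, and a binding motif of the EGR factors (GCGNGGGCG) in GADD45B and SPRY4, on either strand. The windows lie at chr14:75278578-75278827 (plus strand) for FOS, chr19:12791236-12791485 (plus strand) for JUNB, chr19:2475877-2476126 (plus strand) for GADD45B and chr5:142324248-142324497 (minus strand) for SPRY4.
FOS: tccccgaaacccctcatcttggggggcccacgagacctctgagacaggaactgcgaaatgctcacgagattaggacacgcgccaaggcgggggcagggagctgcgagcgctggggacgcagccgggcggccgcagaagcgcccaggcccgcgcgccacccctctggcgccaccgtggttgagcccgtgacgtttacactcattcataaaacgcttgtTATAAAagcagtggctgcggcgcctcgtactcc
JUNB: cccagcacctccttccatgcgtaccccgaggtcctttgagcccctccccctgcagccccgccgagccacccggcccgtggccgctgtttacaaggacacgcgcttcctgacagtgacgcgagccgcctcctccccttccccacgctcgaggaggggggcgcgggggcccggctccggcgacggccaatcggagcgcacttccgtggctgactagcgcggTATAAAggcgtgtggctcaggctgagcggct
GADD45B: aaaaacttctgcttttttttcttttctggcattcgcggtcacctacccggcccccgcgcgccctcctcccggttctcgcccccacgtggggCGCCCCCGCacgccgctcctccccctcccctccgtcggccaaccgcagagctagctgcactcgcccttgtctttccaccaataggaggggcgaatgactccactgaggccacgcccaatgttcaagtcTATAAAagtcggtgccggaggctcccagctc
SPRY4: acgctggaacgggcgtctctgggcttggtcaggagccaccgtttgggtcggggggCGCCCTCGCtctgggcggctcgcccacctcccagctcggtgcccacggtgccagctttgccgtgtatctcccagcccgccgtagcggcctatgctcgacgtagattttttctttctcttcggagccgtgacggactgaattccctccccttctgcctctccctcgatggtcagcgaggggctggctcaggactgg

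The TATA box of FOS spans positions -33 to -28 before the start, and those of JUNB and GADD45B span -31 to -26. The EGR motif spans -195 to -187 in SPRY4 and -159 to -151 in GADD45B. No 2 of these marked matches overlap. Of the 40 matched genes 9 hold the EGR motif, against 8.25% of 27305 promoters of the same length, and 5 hold the TATA box, against 11.1%. The AP-1 site (TGACTCA) was in 1 of the 40, against 4.16% of promoters, and in 0 of the 32 whose signal was detected. The cAMP response element (TGACGTCA) was in 3, against 1.77%, the ETS site (CCGGAAGT) in 0, against 3.64%, and the TEAD site (GGAATG) in 1, against 11.9%. The CArG box, bound by serum response factor, was in 1, against 1.14%. The NF-kB site was in 2, of which 1 was detected, against 5.05%. All motifs were searched on both strands, as exact matches to the pattern within the 250 bases. A variant of a site, or a site further away, is not counted, so no match does not mean no site. Of the 9 higher genes 6 had a window. Among them the EGR motif was in SPRY4, the TATA box in FOS and JUNB, and the cAMP response element in DUSP8. Of the 25 detected genes with a window and within 1.5-fold, 7 held the EGR motif (DUSP2, DUSP3, DUSP14, DUSP15, DUSP16, EGR1 and SPRY2). In these 25 the TATA box was in DUSP1 and FOSB, and the cAMP response element in DUSP1 and JUND. Whether a motif bears on the differences was not tested.

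Among the FOS subunits of AP-1, 4 of 4 were detected and 2 were at least 1.5-fold higher, FOS and FOSL1. FOS, the founding immediate-early subunit, had a deposited signal of 1097 in the control and 2083 in the knockdown. Its normalized log2 signal was 10.07 and 11.10, a difference of 1.03 or 2.04-fold, at position 195 from the highest of the 11720 detected genes. In the authors' deposited table the difference was 0.9993, just under 2-fold. FOSL1 encodes FRA-1, which accumulates under sustained ERK activity, and it had deposited signals of 2904 and 5082 in that order. Its log2 signal went from 11.46 in the control to 12.36 in the knockdown, a difference of 0.91 (1.88-fold, position 299). The knockdown array was thus the higher for both, by more than the SD per probe of 0.31. The remaining FOS subunits were near equal on the arrays, FOSB with log2 signals of 9.41 and 9.51 (0.10) and FOSL2, which encodes FRA-2, with 7.60 and 7.67 (0.07).

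The JUN subunits differed less. JUNB, which often restrains the activity of JUN, had deposited signals of 322 in the control and 528 in the knockdown. Its log2 signals of 8.35 and 9.14 differed by 0.79 (1.73-fold, position 439). JUN itself, the main transactivating partner of FOS, had log2 signals of 12.09 and 12.26 (0.18), and JUND, which is made in resting cells, had 14.58 and 14.39 (-0.19). Both of these lie within the SD per probe.

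**Figure D2:**
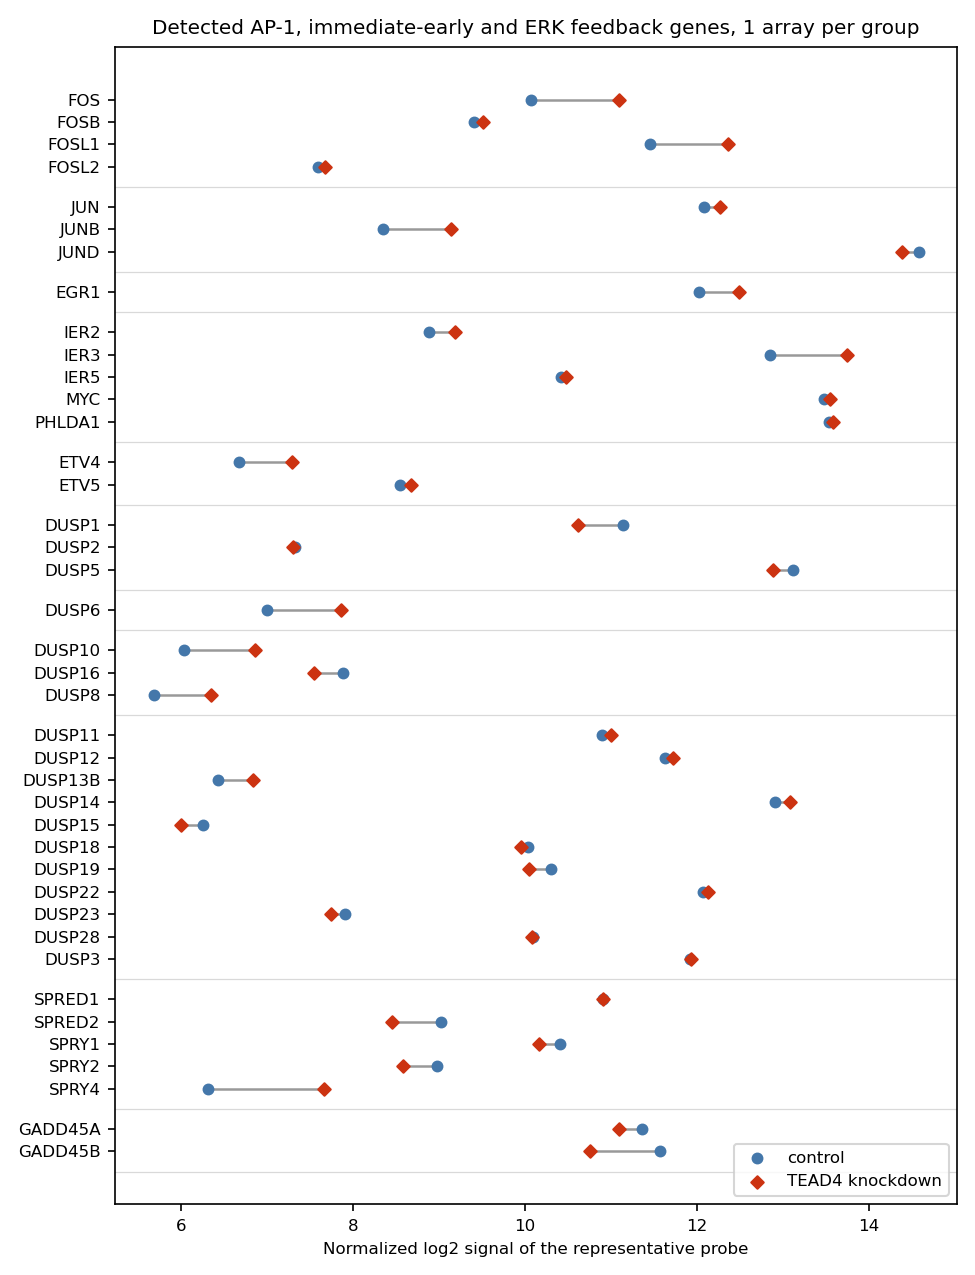
Normalized log2 signal of the brightest probe (horizontal axis) on the control array (blue circles) and the TEAD4 knockdown array (red diamonds) for each of the 40 detected genes (vertical axis), grouped by role. FOS, FOSL1, IER3, DUSP6, DUSP10 and SPRY4 have the diamond clearly to the right, and GADD45B has it to the left; levels of different probes are not comparable with each other.

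Of the zinc finger factors and other immediate-early genes, 6 were detected and 1, IER3, was past 1.5-fold. EGR1, a zinc finger factor induced through serum response factor, had deposited signals of 4305 in the control and 5497 in the knockdown. The log2 difference was 0.46 (1.38-fold), which is under 1.5-fold and stayed between 0.459 and 0.464 in the alternatives. EGR3 and EGR4 were not detected. IER3, a stress-inducible regulator of ERK signalling and cell survival, had deposited signals of 7572 and 13286. Its log2 signals were 12.84 in the control and 13.74 in the knockdown, so that it was 1.86-fold higher (0.90, position 311). The related names IER2 (0.31) and IER5 (0.06), both immediate-early nuclear proteins, differed by at most 1.24-fold. MYC, a growth-promoting factor, had log2 signals of 13.47 and 13.55 (0.07) by its brightest probe and 10.60 and 10.38 (-0.22) by the other, so its probes disagree in sign at sizes within the SD per probe. PHLDA1, whose transcript follows ERK activity in many cancer lines, behaved alike with 0.05 and -0.15.

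ETV4 and ETV5 are ETS factors of the PEA3 type whose transcripts follow ERK and fibroblast growth factor signalling. The deposited signals of ETV4 were 87.7 in the control and 137.6 in the knockdown. Its log2 difference was 0.62 (1.54-fold), and its other detected probe gave 0.43. ETV4 was under 1.5-fold with an offset of 50 (0.49), in the authors' deposited table (0.39) and with its probes averaged (0.53). ETV5 had log2 signals of 8.55 and 8.68 (0.13) and -0.03 by its other probe. The call of ETV4 is therefore marginal, and ETV5 gave no difference beyond the SD per probe.

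The phosphatases of MAP kinases differ in where they act and on which kinase. The nuclear, inducible class held 3 detected genes of 4, and 0 were past 1.5-fold. DUSP1, an immediate-early phosphatase acting on p38, JNK and ERK, had deposited signals of 2335 (control) and 1504 (knockdown), 1.43-fold lower (-0.52). DUSP5, which acts on ERK in the nucleus, had 9153 and 7324 (-0.23), and DUSP2 had 148 and 139 (-0.02). None of the 3 was higher in the knockdown here, though DUSP2 was at 0.03 with arrays scaled to their 75th percentile. DUSP4, another nuclear phosphatase of ERK, was detected by neither of its probes, with deposited signals of -0.147 and 7.35 at the brighter one.

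In the cytoplasm, DUSP6 is the phosphatase specific for ERK and a common readout of its activity. Its deposited signals were 114 in the control and 210 in the knockdown. The log2 signals of 7.00 and 7.86 make it 1.81-fold higher in the knockdown (0.86, position 363). A further DUSP6 probe was detected on neither array (-0.04), and averaging the 2 gave 0.41, under 1.5-fold. The authors' deposited table gave 0.60, just past 1.5-fold (0.58). DUSP7 and DUSP9, the other cytoplasmic members, were not detected.

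Among the phosphatases that prefer JNK and p38, 2 of 3 were at least 1.5-fold higher. DUSP10 had deposited signals of 50.5 for the control and 98.4 for the knockdown (log2 6.03 and 6.86, difference 0.82, 1.77-fold). DUSP8 had 36.0 and 64.3 (log2 5.68 and 6.35, difference 0.67, 1.59-fold), with a detection p of 0.0094 in the control, next to the limit. DUSP16, a phosphatase of JNK, went the other way with log2 signals of 7.88 and 7.55 (-0.33). The authors' deposited table put DUSP10 at 0.44 and DUSP8 at 0.32, both under 1.5-fold, and an offset of 50 put DUSP8 at 0.44. DUSP10 with an offset of 50 was 0.59, next to the limit.

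Of the 15 atypical or other dual-specificity phosphatases, 11 were detected and 0 were past 1.5-fold. Their differences ran from -0.26 for DUSP19 to 0.41 for DUSP13B, with a median of 0.01. Several of these act on substrates other than MAP kinases, such as DUSP11, which works on RNA (0.10). DUSP3 had log2 signals of 11.92 and 11.93 (0.01), DUSP12 11.63 and 11.72 (0.09) and DUSP14 12.90 and 13.08 (0.18). DUSP22, a phosphatase tied to JNK signalling, had probes that disagree. Its brightest probe differed by 0.06 and another by -0.06, whereas a further detected probe had deposited signals of 135 in the control and 301 in the knockdown, a difference of 1.15. Which transcripts each DUSP22 probe reads was not analysed here. DUSP21, DUSP26, DUSP29 and the pseudogene DUSP5P1 were not detected.

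**Figure D3:**
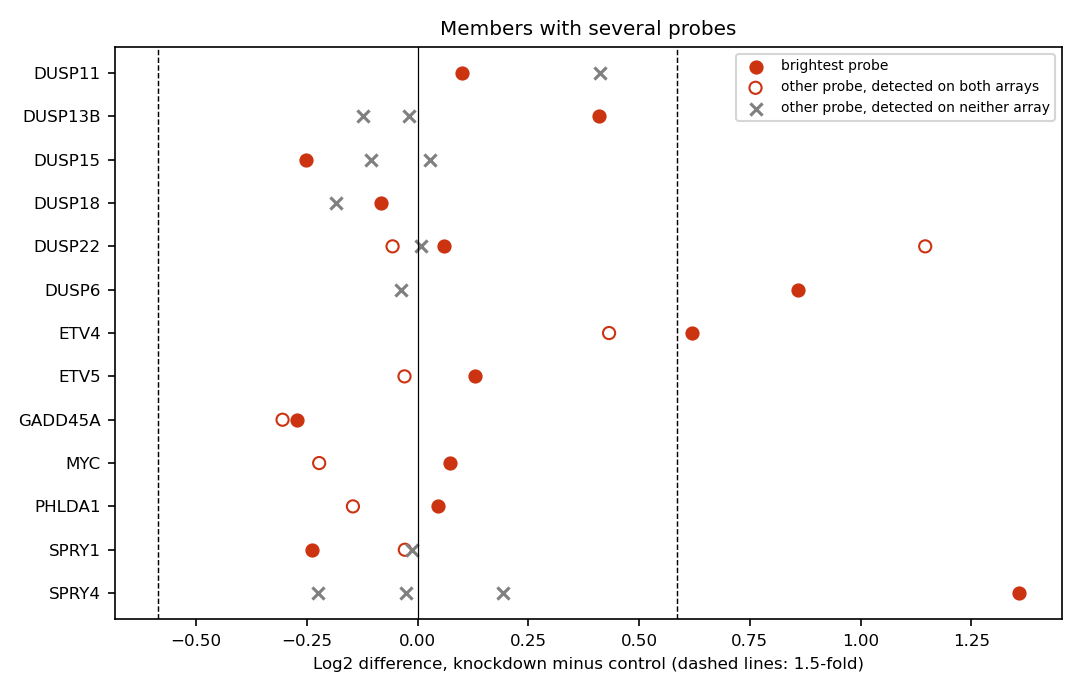
Log2 difference, knockdown minus control (horizontal axis), of every probe of the 13 detected genes with several probes (vertical axis); filled circles are the brightest probe, open circles other probes detected on both arrays, and crosses probes detected on neither. The open circle of DUSP22 at 1.15 lies apart from its other probes, and the SPRY4 and DUSP6 differences rest on 1 detected probe each.

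The Sprouty and SPRED inhibitors differed in direction. SPRY4, which blocks the activation of RAS and RAF downstream of growth factor receptors, had the highest difference of the set in the main normalization. Its deposited signals were 65.0 in the control and 182 in the knockdown, with log2 signals of 6.31 and 7.67 (1.36, 2.56-fold, position 58). The other 3 SPRY4 probes were detected on neither array, and averaging all 4 gave 0.32, under 1.5-fold. The authors' deposited table gave 0.85. In both of these settings FOS and FOSL1 lay above SPRY4. The remaining detected members were below 0. SPRED2, which together with SPRED1 brings the RAS inhibitor neurofibromin to the membrane, had deposited signals of 523 in the control and 321 in the knockdown (-0.56, 1.48-fold lower). Without background correction and offset SPRED2 was past 1.5-fold (-0.59). SPRY2, another inhibitor of receptor tyrosine kinase signalling, had 506 and 355 (-0.39), SPRY1 had 1387 and 1092 (-0.24, and -0.03 by another probe), and SPRED1 had 1976 and 1825 (-0.002). So 1 of the 5 detected inhibitors was at least 1.5-fold higher and 4 were lower by less than 1.5-fold. SPRY3 and SPRED3 were not detected.

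The GADD45 proteins bind and activate a kinase upstream of p38 and JNK under stress. GADD45B, induced by TGF-beta and NF-kB, had deposited signals of 3131 in the control and 1660 in the knockdown. Its log2 signals of 11.57 and 10.76 make it 1.75-fold lower in the knockdown (-0.81), at position 513 from the lowest of all detected genes. GADD45A, a p53 target, was lower by less, with log2 signals of 11.36 and 11.09 (-0.27) and -0.30 by its other probe. GADD45G was not detected.

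**Figure D4:**
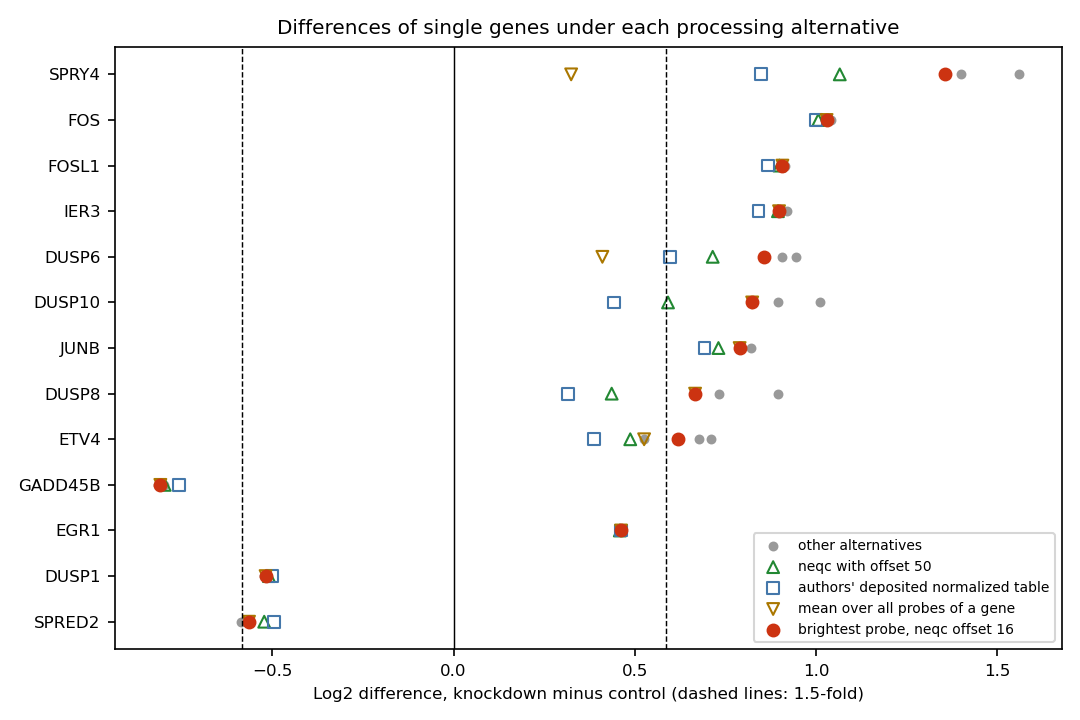
Log2 difference, knockdown minus control (horizontal axis), of the 10 genes past 1.5-fold and of EGR1, DUSP1 and SPRED2 (vertical axis) under the reported setting (filled red circle) and each processing alternative. FOS, FOSL1, IER3, JUNB and GADD45B stay beyond the dashed 1.5-fold lines under every alternative, and SPRY4, DUSP6, DUSP10, DUSP8 and ETV4 cross the line under at least 1.

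The rest of the pathway was described from lists that share no gene with the set. In the ERK cascade, from receptors to kinases, 22 of 23 measured genes were detected, with 1 at least 1.5-fold higher, the ERK-activating kinase MAP2K2 (0.78), and 1 lower, the ribosomal S6 kinase RPS6KA2 (-0.70). Its median was 0.01. The kinases of the JNK, p38 and ERK5 cascades held 17 detected genes, with 0 higher and 1 lower, the JNK gene MAPK9 (-0.69), and a median of -0.02. Among 14 detected genes listed as other negative regulators of RAS and ERK, 0 were higher and 1 was lower, the ubiquitin ligase CBLB (-0.85), with a median of -0.04. The 14 include SPRYD4 (0.57), a SPRY domain gene outside the Sprouty family and no known inhibitor of ERK, which enters that median. Of all detected genes, 7.24% were at least 1.5-fold higher and 9.20% lower. With counts of 0 or 1, these lists are too short to be told apart from those shares.

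Transcription factors around AP-1 went both ways. Of 10 detected serum response and ternary complex factors and their partners, ETS2 (1.21), an ETS factor activated by ERK, and the actin-regulated coactivator MRTFA (0.81) were higher, and the ternary complex factor ELK3 (-0.82) was lower. Among 11 detected further bZIP and MAF factors, ATF5 (1.70) and the small MAF protein MAFG (0.89) were higher, and BATF3, detected in the knockdown alone, was at least 1.47-fold higher. BACH2 (-2.07) and JDP2 (-0.78), a partner that represses AP-1, were lower. Of 10 detected genes of the wider MYC, MAX and MLX network, MAX (0.66), MLX (0.66) and MXD1 (0.62) were higher. MYCL, detected in the knockdown alone, was at least 1.79-fold higher, while MLXIPL, detected in the control alone, was at least 1.36-fold lower. The medians were -0.01, -0.06 and -0.29 for these 3 lists, against -0.04 over all detected genes. Of all detected genes, 7.24% were at least 1.5-fold higher and 9.20% lower.

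Other immediate-early genes had a median of 0.16, with 5 of 25 detected genes at least 1.5-fold higher and 1 lower. Over all detected genes the shares were 7.24% higher and 9.20% lower, and the median was -0.04. KLF10, a zinc finger repressor induced by TGF-beta, differed by 1.45. Its deposited control signal was 36.2 with a detection p of 0.0094, next to the limit. HBEGF, a ligand of the EGF receptor, differed by 1.13, PLAUR, the urokinase receptor, by 0.99 and MAFF, a small MAF protein, by 0.89. The kinase gene SGK1 was lower (-0.74). NR4A1, NR4A3 and ARC were not detected. Known AP-1 and ERK target genes had the highest median of the pathway lists, 0.40, with 5 of 18 detected genes higher and 1 lower, against the same shares. EPHA2, a receptor kinase, differed by 2.10 and MMP9, a gelatinase, by 1.87, and HBEGF and PLAUR stand in both lists. CCND1, which encodes cyclin D1, was lower (-0.64). MMP1, MMP3, MMP10, MMP13 and PLAT were not detected. These lists were drawn up with earlier results of these arrays known, so their counts are not independent evidence of a direction.

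**Figure D5:**
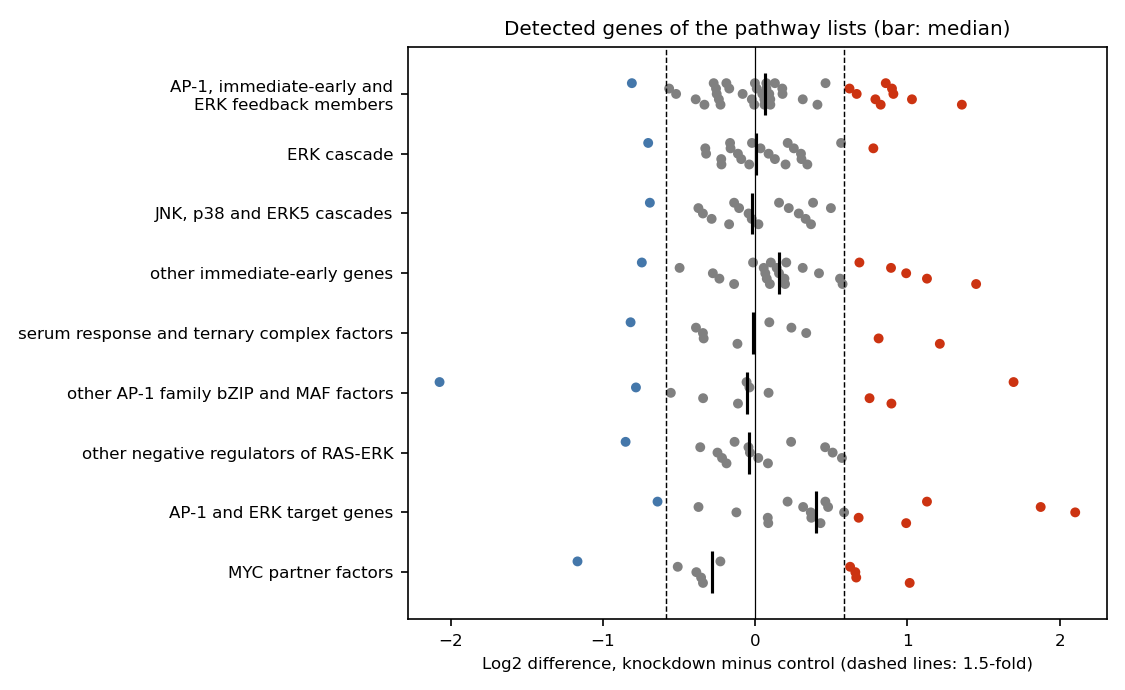
Log2 difference, knockdown minus control (horizontal axis), of each detected gene in the set and in 8 pathway lists (vertical axis), with the median as a black bar; red points are at least 1.5-fold higher and blue points at least 1.5-fold lower. The target gene list has its median at 0.40, and the lists of cascade kinases have theirs at 0.01 and -0.02. The list labelled MYC partner factors holds the wider MYC, MAX and MLX network.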

How the data were processed

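The deposited probe intensity values of 1 control and 1 TEAD4 knockdown array are on a linear scale, with a background level already subtracted (12861 of 47323 probes below 0 in the control and 12895 in the knockdown), and a detection p-value stands beside each, per the file headers. A second intensity table was deposited by the authors after normalization. It is linear and not centred (column medians 118.7 and 118.7), its columns, once sorted, are within 0.00186 of each other in log2, and its method is not given in the sources used here. Signals were normalized with neqc of limma 3.58.1 in R 4.3.3 (normal-exponential background, offset 16, quantile normalization, log2), which pulls folds of dim probes towards 1. Probes with 1 symbol in the platform annotation (30113) were used, taking for a gene the probe of highest mean log2 signal. A gene was past a fold if detected (p under 0.01) on the brighter array. A fold of a probe detected on 1 array is a bound, against the higher of the dim probe and the lowest detected signal of that array. Every member is named, with up to 4 genes per pathway list and direction. The scripts were tested on simulated data. The members and lists were chosen with earlier results of these data known. Summed marker signals take values under 0 as 0.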

Additional observations from a re-analysis of the deposited data

How the results depend on the processing

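No paired analysis was possible because the control and the knockdown are 1 array each, and leaving out a replicate was not run for the same reason. Of 400 values (40 genes under 10 alternatives) 395 kept their sign; the 5 exceptions were DUSP2 under 1 alternative and MYC and PHLDA1 under 2 each, all within 1.5-fold. The number of genes at least 1.5-fold higher was between 6 and 9, and the median between 0.06 and 0.08. The number at least 2-fold higher was 2, but 0 in the authors' deposited table, 1 with all probes of a gene averaged, and 3 with neither background correction nor offset, where DUSP10 passed (1.01). The number at least 1.5-fold lower was 1, but 2 under that same setting, with neither correction nor offset, where SPRED2 passed. Averaging all probes of a gene takes in undetected ones, as for SPRY4 and DUSP6. MYC (-0.07) and PHLDA1 (-0.05) were below 0 also when detected probes alone were averaged. For the other alternatives the cause was not tested. Signal over background limits what dim probes show, and 12 members were detected on neither array.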
